A study of Mus musculus with 24 samples.

Results

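The mouse precursors mmu-mir-182 and mmu-mir-183, written mir-182 and mir-183 below, are microRNA genes of a single cluster on mouse chromosome 6, and the counts of these 2 are described here in BV2 cells and in the extracellular vesicles (EVs) that these cells release. They were taken by name from deposited count tables of 1187 precursors, 892 of which had at least 1 count in any library. BV2 is an immortalised mouse microglial line, so every group carries the same transformed background. Cells were left as controls or were given, for 72 h, LPS (a bacterial cell wall product) at 100 ng/mL or one of the cytokines TGF-β and IL-10, each at 50 ng/mL. Cells and EVs of these 4 conditions make 8 groups, each of 3 libraries. Nothing in the labels shows that libraries within a group are separate cultures, and p-values therefore measure only the spread between libraries, which may be technical. Libraries are numbered here in the order of the table columns, and the numbers pair nothing.

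The cluster holds a further hairpin, mir-96, and the 3 hairpins are made from 1 primary transcript. MicroRNAs of this cluster are abundant in sensory cells of the eye and ear and in many epithelia, and miR-182 and miR-96 are known repressors of FoxO transcription factors. A mature microRNA pairs with its targets mainly through its seed, bases 2 to 8, so a shared seed means largely shared targets. The tables count per precursor and do not separate the arms cut from the 5′ and 3′ sides of a hairpin.

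The RefSeq sequences (GRCm38.p6) of all 3 hairpins were matched by name. The 5p arms are shown first because they set which precursors could share targets. Capitals mark the seed.
mmu-miR-182-5p: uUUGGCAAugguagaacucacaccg
mmu-miR-96-5p: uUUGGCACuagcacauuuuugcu
mmu-miR-183-5p: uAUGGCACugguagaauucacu
No pair of these arms has the same seed. The seeds of miR-182-5p and miR-96-5p have the same base at 6 of 7 positions, as do those of miR-96-5p and miR-183-5p, and those of miR-182-5p and miR-183-5p at 5 of 7. Over their whole length miR-182-5p and miR-183-5p have the same base at 18 of 22 positions, and their longest common run, the 8 bases UGGUAGAA, starts at base 9 of each and lies outside the seed. The 3p arms, also with the seed in capitals, have seeds that differ from each other and from those of the 5p arms.
mmu-miR-182-3p: gUGGUUCUagacuugccaacu
mmu-miR-183-3p: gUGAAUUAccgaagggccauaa
Among the mature mouse sequences searched, no other arm had the seed of an arm of mir-182 or mir-183. The seed of miR-96-5p was also that of miR-1271-5p, whose precursor the count tables do not list under that name. The seed of miR-96-3p was also that of miR-3475-5p, whose precursor had 2 counts over the 24 libraries.

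The hairpins lie on the minus strand in the order mir-183, mir-96, mir-182. Mir183 is at chr6:30169668-30169737, Mir96 at chr6:30169446-30169551 and Mir182 at chr6:30165918-30165992, so 116 bases separate Mir183 from Mir96 and 3453 separate Mir96 from Mir182. The GENCODE M21 annotation places no other gene over the hairpins. The nearest protein-coding genes are Nrf1 and Ube2h, on either side, and the long noncoding RNA gene Rncr4 lies between the cluster and Ube2h. RefSeq lists a long noncoding host gene, Mirc35hg, for these hairpins. The full hairpins of both precursors, with both mature arms in capitals, are given because a table row sums everything counted on them.
Mir182: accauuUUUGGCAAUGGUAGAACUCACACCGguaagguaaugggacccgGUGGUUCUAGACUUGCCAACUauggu
Mir183: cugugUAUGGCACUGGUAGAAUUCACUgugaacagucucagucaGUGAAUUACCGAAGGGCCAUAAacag

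Library totals ran from 185400 to 409969 counts in cells and from 15071 to 28727 in EVs, so a floor of 3 counts stands for 0.000732% to 0.00162% of a cell library and for 0.0104% to 0.0199% of an EV library. The precursor mir-6236 took 49.9% to 79.5% of EV counts and 0.574% to 1.63% of cell counts, and every share in EVs below is a share of totals that include it. Of the listed myeloid precursors, all 6 in the tables were counted in cells, at 0.416% to 0.609% of the counts without LPS and 4.13% to 4.76% with LPS, and mir-142a, found in blood cell lineages, had 11206 counts in cells. After LPS 3 of the 6 were called higher and 2 lower, where 32% of all precursors were called. Mir-146a, with 29916 counts in cells the most counted of the list, was at 5.63 on the log2 scale (edgeR adjusted p = 2.3e-17), mir-223 at -0.66 (adjusted p = 0.0430) and mir-511 at -1.78 (adjusted p = 0.00494). Precursors typical of neurons made up at most 0.0326% of a cell library. The listed precursors of oligodendrocytes made up at most 0.00658%. All 24 pairs of libraries within a group differed by more than counting noise, so none was treated as a repeat deposit.

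In cells, counts of the cluster were almost all from mir-183. Over the 12 cell libraries mir-183 had 28225 counts (96.1% of the cluster), mir-182 had 985 (3.35%) and mir-96 had 165 (0.562%). That is 28.7 counts of mir-183 for each count of mir-182, a ratio of reads and not of molecules, since how well each sequence is captured was not measured. By summed counts mir-183 ranked 22 among all precursors in cells and mir-182 ranked 143. All 3 were counted in all 12 cell libraries.

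Mir-183 had 2478, 3083 and 2506 counts in the control cells, and 3013, 2854 and 3330 after IL-10. After TGF-β it had 2300, 2661 and 2447 counts, and after LPS 1346, 1074 and 1133. These are raw counts, and the LPS libraries were also the smallest, with totals of 185400 to 233757. As a share of all counts of the library, mir-183 was at 0.752% to 0.868% in control cells, 0.839% to 0.952% after IL-10 and 0.780% to 0.823% after TGF-β. After LPS it was at 0.549% to 0.579%, below each of the other 9 libraries.

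That difference in share changed with the scaling. On the TMM scale, which sets counts to a common depth (CPM) such that the bulk of the precursors is level between libraries, mir-183 was at 6796, 7220 and 7576 in control cells and at 6887, 6816 and 6169 after LPS, so the groups overlapped. After IL-10 it was at 8245, 9496 and 9135 and after TGF-β at 8192, 8521 and 6886. In descending order the group levels were 8959 ± 644 CPM (SD, n = 3) for IL-10, 7866 ± 865 for TGF-β, 7197 ± 390 for control and 6624 ± 396 for LPS. No neighbours in that order differed by edgeR (adjusted p of 0.417, 0.582 and 0.506 going down). The ends did.

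**Figure D1:**
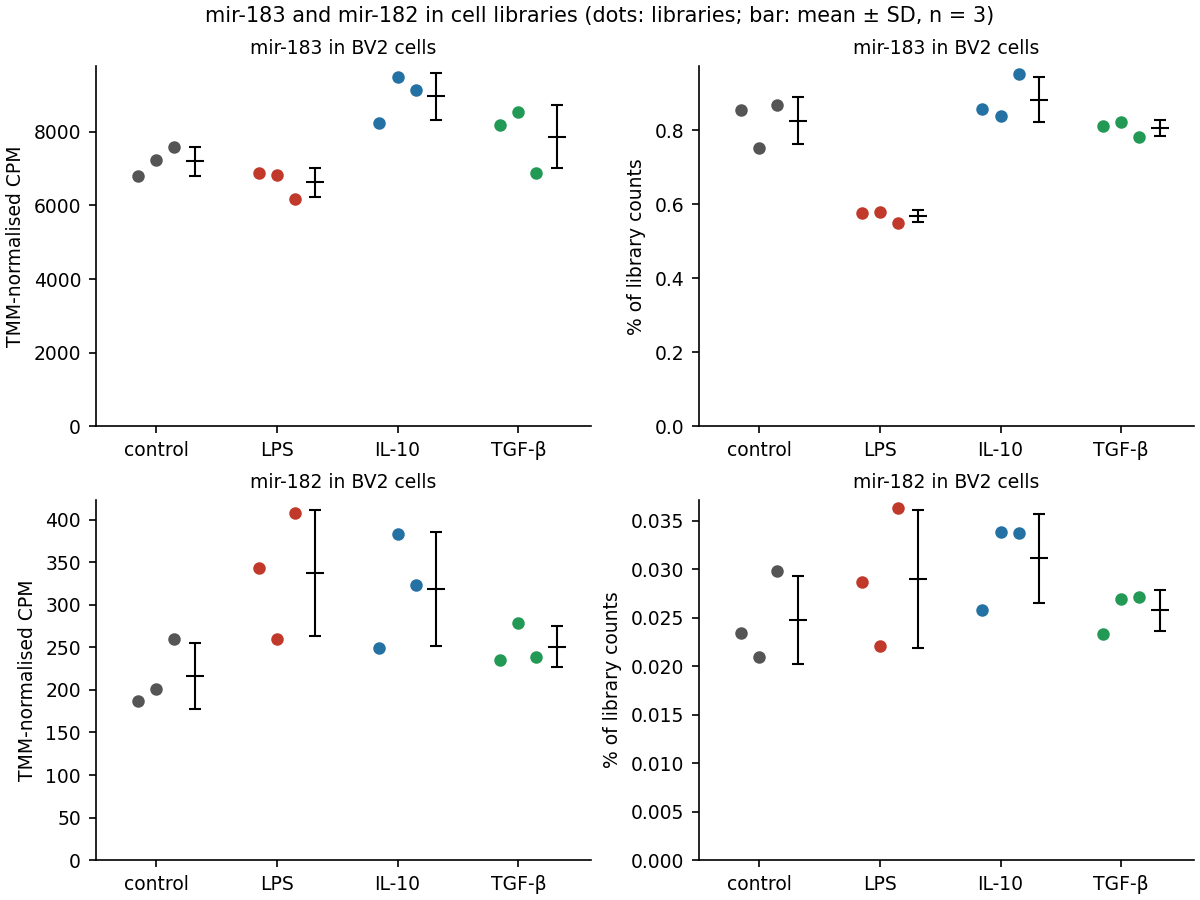
Level of mir-183 (top) and mir-182 (bottom) in each of the 12 cell libraries, as TMM-scaled CPM (left) and as a percentage of the counts of the library (right); dots are libraries and bars the mean ± SD of 3. The LPS dots of mir-183 lie apart from the others on the right, at 0.549% to 0.579%, and overlap the control dots on the left, and the LPS dots of mir-182 lie at or above the control dots on the left.

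Tested with edgeR's quasi-likelihood test over 259 precursors, where a call is a Benjamini-Hochberg adjusted p under 0.05, mir-183 was not called in any treatment against control. LPS gave a log2 fold change of -0.12 ± 0.13 (SE, 3 against 3 libraries, adjusted p = 0.506), in a comparison that called 32% of precursors. IL-10 gave 0.32 ± 0.13 (edgeR adjusted p = 0.120), where 7.72% were called. TGF-β gave 0.13 ± 0.13 (edgeR adjusted p = 0.582), where 6.56% were called. The 95% intervals were -0.39 to 0.15 for LPS, 0.05 to 0.59 for IL-10 and -0.14 to 0.40 for TGF-β, on the log2 scale. These 3 comparisons share the control libraries. In bulk libraries, fewer cells with a microRNA and less of it per cell cannot be told apart.

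Between treatments, mir-183 was lower after LPS than after IL-10, by a log2 difference of -0.44 ± 0.13 (edgeR adjusted p = 0.0126, all 3 LPS libraries below all 3 IL-10 libraries), in a comparison that called 44.4% of precursors. Without LPS library 3 this was -0.37 (adjusted p = 0.0633). LPS against TGF-β gave -0.25 ± 0.13 (edgeR adjusted p = 0.153, 32% called), and IL-10 against TGF-β gave 0.19 ± 0.13 (edgeR adjusted p = 0.417, 14.7% called).

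Scaling by library totals alone, which is the scale of the shares, made mir-183 lower after LPS than in control cells by -0.54 on the log2 scale (edgeR adjusted p = 0.000205). It also called LPS against TGF-β (-0.50, edgeR adjusted p = 0.000309). On that scale the median of all tested precursors was itself at -0.32 in LPS against control, while with TMM it was at 0.09. Set against that median, mir-183 stood at -0.21 with TMM and at -0.22 with library totals. The precursor mir-5099 took 19.4% to 22.5% of counts in the LPS cells and 11.5% to 14.4% in control cells, and the part of this in the share of mir-183 was not tested.

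Mir-182 was sparse but present in every cell library. It had 68, 86 and 86 counts in control cells, 67, 41 and 75 after LPS, 91, 115 and 118 with IL-10 and 66, 87 and 85 with TGF-β. On the TMM scale these are 186, 201 and 260 CPM in control cells and 343, 260 and 408 CPM after LPS, where the lowest LPS library and the highest control library were level. After IL-10 they are 249, 383 and 324 CPM, and after TGF-β 235, 279 and 239 CPM, both overlapping the control values. The order of the group levels was LPS (337 ± 74.2 CPM, SD, n = 3), IL-10 (318 ± 67.0), TGF-β (251 ± 24.0) and control (216 ± 38.8), and no neighbours in it differed (edgeR adjusted p of 0.743, 0.269 and 0.485).

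Mir-182 rose after LPS, by 0.66 ± 0.20 on the log2 scale (1.58-fold, edgeR adjusted p = 0.0146, 3 of 3 LPS libraries above the control mean), in the comparison that called 32% of all precursors. IL-10 gave 0.56 ± 0.18 (edgeR adjusted p = 0.0643) and TGF-β 0.22 ± 0.19 (edgeR adjusted p = 0.485). The call for LPS was lost with library totals (0.25, adjusted p = 0.336), without a filter on low counts (0.46, adjusted p = 0.114), and when control library 1, control library 2 or LPS library 3 was left out (0.51, 0.49 and 0.47, adjusted p of 0.0696, 0.0735 and 0.119). Against the median of all tested precursors mir-182 stood at 0.57 both with TMM and with library totals. None of the comparisons of LPS with IL-10 (0.10, edgeR adjusted p = 0.743), LPS with TGF-β (0.43, edgeR adjusted p = 0.10) or IL-10 with TGF-β (0.34, edgeR adjusted p = 0.269) was called.

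**Figure D2:**
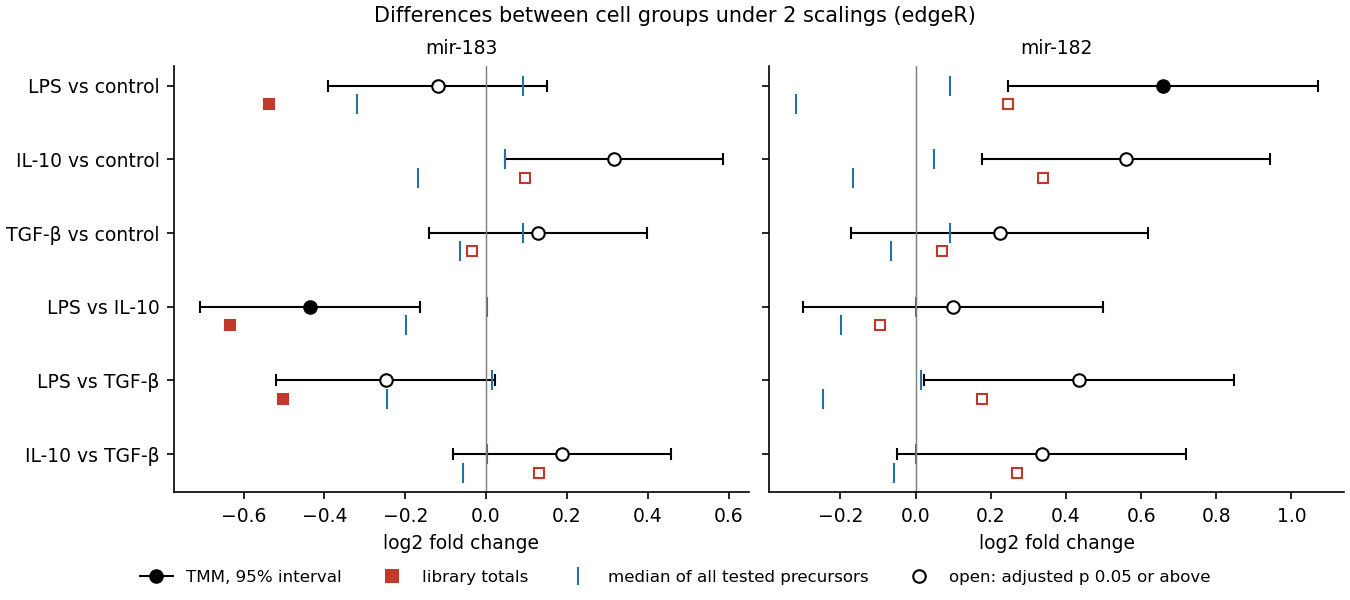
Log2 fold change of mir-183 (left) and mir-182 (right) for the 6 pairs of cell groups; circles with 95% intervals use TMM, squares library totals, blue ticks the median of all 259 tested precursors on the same scale, and filled symbols an edgeR adjusted p under 0.05. With TMM the filled symbols are mir-182 in LPS against control (0.66) and mir-183 in LPS against IL-10 (-0.44), and with library totals the symbols and the medians move left together in the LPS comparisons.

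The ratio of mir-182 to mir-183 within a library is the same under either scaling. Mir-182 made up 2.67%, 2.71% and 3.32% of the pair's counts in control cells and 4.74%, 3.68% and 6.21% after LPS, so each LPS library lay above each control library. After IL-10 it made up 2.93%, 3.87% and 3.42% and after TGF-β 2.79%, 3.17% and 3.36%, both overlapping control. The mean log2 ratio was -4.31 ± 0.39 (SD, n = 3) with LPS and -5.06 ± 0.18 in control, a difference of 0.76 or 1.69-fold in favour of mir-182.

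An exact permutation test over all 15400 arrangements of the 12 cell libraries gave p = 0.0244 for a difference of this ratio between the 4 groups, two-sided by construction and 0.0366 after adjustment over 3 measures. The same exact permutation test gave p = 0.0125 (adjusted 0.0366) for the TMM level of mir-183 and p = 0.0772 (adjusted 0.0772) for that of mir-182. Without LPS library 3, in which mir-182 was at its highest share, the difference in log2 ratio between LPS and control was 0.56 and the exact permutation p over the 4 groups 0.0725. The exact test of LPS against control alone gave p = 0.1 (two-sided, adjusted 0.3 over 6 pairs of groups), the smallest that 3 against 3 libraries allow. LPS against TGF-β, the other pair without overlap, gave the same exact p.

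**Figure D3:**
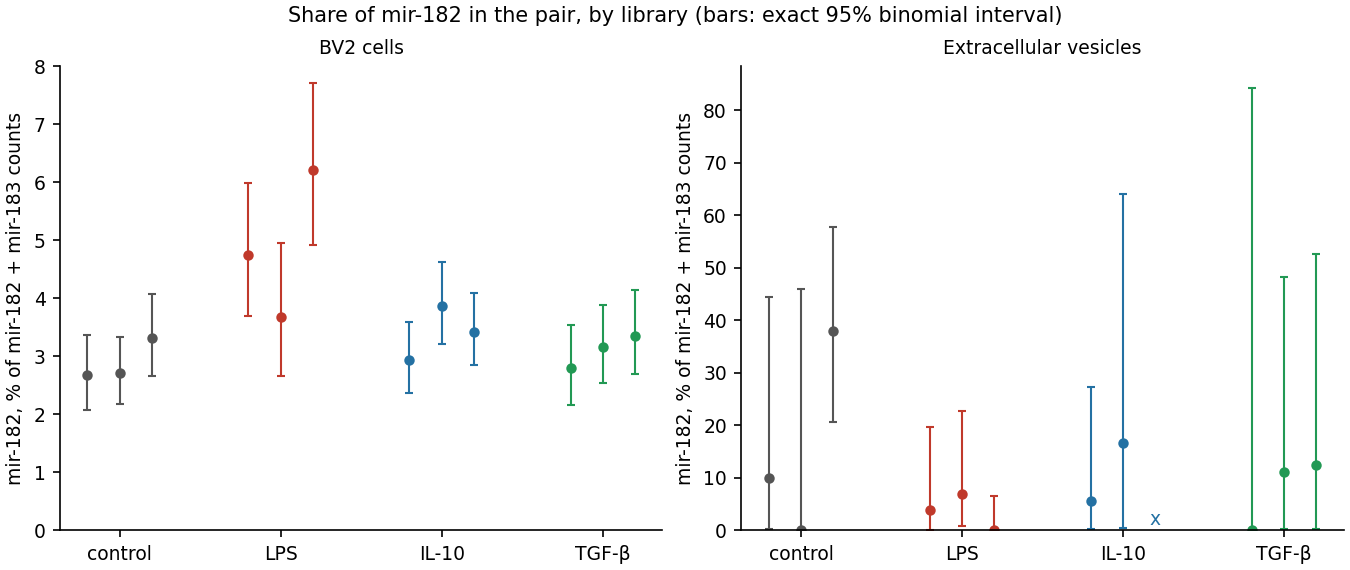
Mir-182 as a percentage of the counts of mir-182 and mir-183 together in each cell library (left) and EV library (right, wider scale), with exact 95% binomial intervals for counting error only; a cross marks an IL-10 EV library with no count of either. LPS cells lie at 3.68% to 6.21%, above the control cells at 2.67% to 3.32%, and most EV intervals run over the whole range of the cells.

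Across the 12 cell libraries the levels of the 2 precursors did not show a detectable relation. The TMM log2 levels had a Pearson r of 0.168 (permutation p = 0.600) and a Spearman rho of 0.196 (permutation p = 0.548), with 1 such relation tested. Leaving out the 2 libraries farthest from the median of mir-182 gave r = 0.371, and deviations from the group means gave r = 0.347. With library totals r was -0.01. Mir-182 rested on 41 to 118 counts per library and mir-183 on 1074 to 3330.

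Mir-96 was the least counted of the cluster, with 21, 10 and 18 counts in control cells, 9, 8 and 11 after LPS, 18, 15 and 12 with IL-10 and 15, 18 and 10 with TGF-β. On the TMM scale LPS against control was at 0.24 ± 0.42 (log2, edgeR adjusted p = 0.671), IL-10 at -0.01 ± 0.38 (adjusted p = 0.984) and TGF-β at 0.05 ± 0.39 (adjusted p = 0.957). The interval for LPS, -0.64 to 1.12, holds both the value of mir-182 and that of mir-183, so at this depth mir-96 could not be set apart from either.

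Of all precursors tested in cells, those whose TMM log2 CPM over the 12 cell libraries ran most like mir-183 were let-7d (Pearson r = 0.935), let-7c-1 (0.916) and let-7a-2 (0.875), members of the most abundant family here. All 3 had their highest mean level after IL-10. Let-7d was at 12848 CPM after LPS, 14419 in control, 14855 after TGF-β and 16989 after IL-10. Let-7 precursors together made up 37.6% to 39.7% of counts after LPS and 48.5% to 50.9% in control cells. Counted per 1000 let-7 counts of the same library, mir-183 ranged from 13.8 to 17.4 over all 12 cell libraries, which restates its likeness to let-7 precursors. It was at 16.7 ± 1.01 (SD, n = 3) in control, 14.6 ± 0.788 after LPS, 15.4 ± 1.10 with IL-10 and 15.6 ± 0.347 with TGF-β. On this scale, chosen after seeing the data, the 3 LPS libraries (13.8 to 15.4) lay below the 3 control libraries (15.5 to 17.4). They overlapped those of IL-10 (14.2 to 16.4) and TGF-β (15.2 to 15.8). The scale was not tested between cell groups, and how many other precursors separate on it was not counted.

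Most like mir-182 were mir-132 (r = 0.856), mir-669d (0.839) and mir-669l (0.816). Mir-132, known as a microRNA induced by neuronal and immune stimulation, had a mean of only 4.92 counts per library, at 7.29 CPM in control cells, 36.6 after LPS, 22.2 with IL-10 and 8.27 with TGF-β. Mir-669l was at 317 CPM in control cells, 469 after LPS, 449 with IL-10 and 403 with TGF-β. These are descriptions over 12 points that share libraries and scaling, and mir-669 precursors have near-identical copies between which reads may have been split.

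The FoxO list was set beside the cluster because the products of its members are known to repress FoxO1 or FoxO3. It is a selection and not a full list of such precursors, and its counts depend on which were named. Mir-183, at -0.12 after LPS, is not on it. It has 9 members, mir-182 and mir-96 included, all in the tables, and 8 passed the filter in cells. After LPS 5 of the 8 were called higher and 0 lower, where 83 of all 259 precursors (32%) were called, 54 higher and 29 lower. The median log2 fold change was 1.16 beside 0.09 for all precursors tested. The list was chosen with earlier results of these data known and holds mir-182 itself. Its counts and medians, here and for the other treatments, are therefore a description and no independent support. Mir-222 rose by 2.29 ± 0.13 (edgeR adjusted p = 2.6e-12) and its neighbour mir-221 by 1.66 ± 0.14 (edgeR adjusted p = 9.0e-10), a pair also known for repressing the cell cycle inhibitor p27. The other 3 called were mir-182, mir-132 and mir-155, which rises in activated macrophages. Mir-27a was at -0.01 ± 0.15 and mir-27b at -0.02 ± 0.15 (edgeR adjusted p of 0.949 and 0.930). With library totals 4 were called higher and 2 lower, mir-182 no longer being called and mir-27a and mir-27b being called lower.

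After IL-10 2 of the 8 were called higher and 0 lower (median 0.54, all precursors 0.05), where 7.72% of all precursors were called. These were mir-222 at 0.76 ± 0.13 (edgeR adjusted p = 0.000371) and mir-27b at 0.51 ± 0.14 (edgeR adjusted p = 0.0295). After TGF-β 0 were higher and 1 lower (median 0.12, all precursors 0.09), where 6.56% of all precursors were called. This was mir-222 at -1.05 ± 0.14 (edgeR adjusted p = 4.1e-05). In levels, mir-182 was in the middle of the list: its 985 counts in cells compare with 4575 for mir-222, 3334 for mir-221, 2964 for mir-27b and 2541 for mir-27a. The remaining members had fewer, from 41 to 272 counts.

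Precursors typical of epithelium and sensory cells, where the cluster is best known, were nearly absent from BV2 cells. Of 12 listed, mir-96 included, 3 were at 0 in all cell libraries (mir-200a, mir-205 and mir-375) and only mir-96 passed the filter. The list summed to 0.00415% to 0.0117% of a cell library, so mir-183 alone exceeded the whole list in every cell library. Mir-200c, an epithelial microRNA, had 55 counts in cells and mir-200b 22.

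In EVs mir-183 was counted in 11 of 12 libraries and mir-182 was near the limit of detection. Mir-183 had 179 counts over the 12 EV libraries, ranking 42 there, and mir-182 had 19. Mir-96 had 0 in all 12, which allows a share of up to 0.00133% of all EV counts, beside 0.00461% in cells. Intervals and floors cover counting error only, since amplified reads without molecular identifiers are not independent molecules.

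Of the 12 epithelial and sensory precursors, scarce in cells, 6 were at 0 in all EV libraries. Mir-203 and mir-184 held nearly all EV counts of this list. The list summed to 0.0501% to 1.09% of an EV library, highest in TGF-β EV library 1 and above the share of mir-183 in 9 of 12 libraries. Mir-203, a skin microRNA, had 381 counts in EVs and 5 in cells, and mir-184 had 119 and 7. Mir-200b had 5 and 22, and mir-200c 2 and 55. The neuronal precursors summed to 0% to 0.492% of an EV library, highest in control EV library 1 and above mir-183 in 4 of 12. The myeloid precursors summed to 0.0568% to 0.634%, above mir-183 in 11 of 12. The part of these markers in the EV values of mir-182 and mir-183 was not tested.

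Mir-183 had 9, 6 and 18 counts in control EVs, 25, 27 and 55 in LPS EVs, 17, 5 and 0 in IL-10 EVs, and 2, 8 and 7 in TGF-β EVs. As a share of the library it was at 0.0374% to 0.0997% in control EVs and at 0.0940% to 0.213% in LPS EVs. It was at 0% to 0.0959% in IL-10 EVs and 0.0120% to 0.0505% in TGF-β EVs. The mean share was highest in LPS EVs, but the groups overlapped: library 2 of LPS lay below library 3 of control and library 1 of IL-10. With library totals, LPS against control EVs was at 1.08 on the log2 scale for mir-183 and at 1.10 for the median of all tested precursors. Mir-6236 took 49.9% to 65.5% of counts in LPS EVs and 73.7% to 75.8% in control EVs, and its part was not tested. The library at 0 allows a share of up to 0.0192%.

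None of the treatments was called for mir-183 in EVs, where 71 precursors passed the filter. LPS gave 0.02 ± 0.81 on the log2 scale (edgeR adjusted p = 0.981), in a comparison that called 18.3%. IL-10 gave -0.80 ± 0.86 (edgeR adjusted p = 0.927), where 0% were called by edgeR and by DESeq2 and 5 precursors had an unadjusted edgeR p under 0.05. TGF-β gave -0.57 ± 0.86 (edgeR adjusted p = 0.868), where 4.23% were called. The interval for LPS ran from -1.74 to 1.78, so a change of several-fold either way was not detectable at this depth.

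Mir-182 did not pass the filter in EVs and was not tested between treatments there. It had 1, 0 and 11 counts in control EVs, 1, 2 and 0 in LPS EVs, 1, 1 and 0 in IL-10 EVs, and 0, 1 and 1 in TGF-β EVs. Summed by group this is 12 (exact Poisson 95% interval 6.20 to 21.0), 3 (0.619 to 8.77), 2 (0.242 to 7.22) and 2 (0.242 to 7.22). Control EV library 3 alone held 11 of the 19, and without it 8 counts remained over 11 libraries.

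The other control EV libraries lacked some further microRNAs found in that library. The erythroid microRNAs mir-486a and mir-144 had 12 and 11 counts in it and 0 in both other control EV libraries, with 3 and 26 over the other 11 EV libraries. The listed erythroid or serum precursors summed to 0.127% of its counts, below IL-10 EV library 1 with 0.141%, and mir-451a, the defining one, was at 0 in it. The highest sums of this list were 0.00835% in LPS EVs and 0.0189% in TGF-β EVs. Mir-184, of the epithelial and sensory list, had 22 counts in this library, 0 and 9 in the other control EV libraries and 97 in the other 11. These precursors were picked out after their values were seen, and their part in the count of mir-182 was not tested.

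Against cells, mir-183 took a much smaller share of EV libraries. Its share was lower in each of the 12 EV libraries than in every cell library of the same treatment, by -3.92 in mean log2 CPM (15.2-fold, pseudocount 0.5). The exact permutation test within treatments, two-sided, gave p = 1.25e-05, the smallest that 160000 arrangements can give. Most precursors were lower on this scale. With library totals the log2 median of all 280 precursors was -2.67 in control, -1.14 with LPS, -2.80 with IL-10 and -2.99 with TGF-β. Mir-183 was at -3.65, -2.05, -4.31 and -4.48. In the same order edgeR called 170, 118, 166 and 160 of the 280 lower. Mir-182, with 19 counts in all 12 EV libraries together, had a pooled share of 0.00845% in EVs and 0.0275% in cells. Its mean log2 CPM was lower by -1.96 (3.90-fold, exact permutation p = 0.000213), in 11 of 12 EV libraries. At 0 to 11 counts per EV library this value depends on the pseudocount, and no call is read from it.

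The size of this difference changed with the denominator. Once 8 precursors that often overlap other small RNAs, mir-6236 among them, were removed from all totals, mir-183 was lower in EVs by -1.90 (3.73-fold, exact permutation p = 1.25e-05) and mir-182 differed by 0.06 (exact permutation p = 0.890). Per 1000 let-7 counts, a scale chosen after seeing the data, mir-183 had a mean of 11.5 in EVs and 15.6 in cells (difference -4.10, exact permutation p = 0.0126, adjusted 0.0252 over the 2 precursors), below all cells of its treatment in 10 of 12 EV libraries. The exceptions, control EV library 3 at 19.6 and LPS EV library 3 at 17.2, lay above them. Mir-182 had 1.80 in EVs and 0.571 in cells per 1000 let-7 counts (exact permutation p = 0.166), or 0.873 in EVs without control EV library 3.

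**Figure D4:**
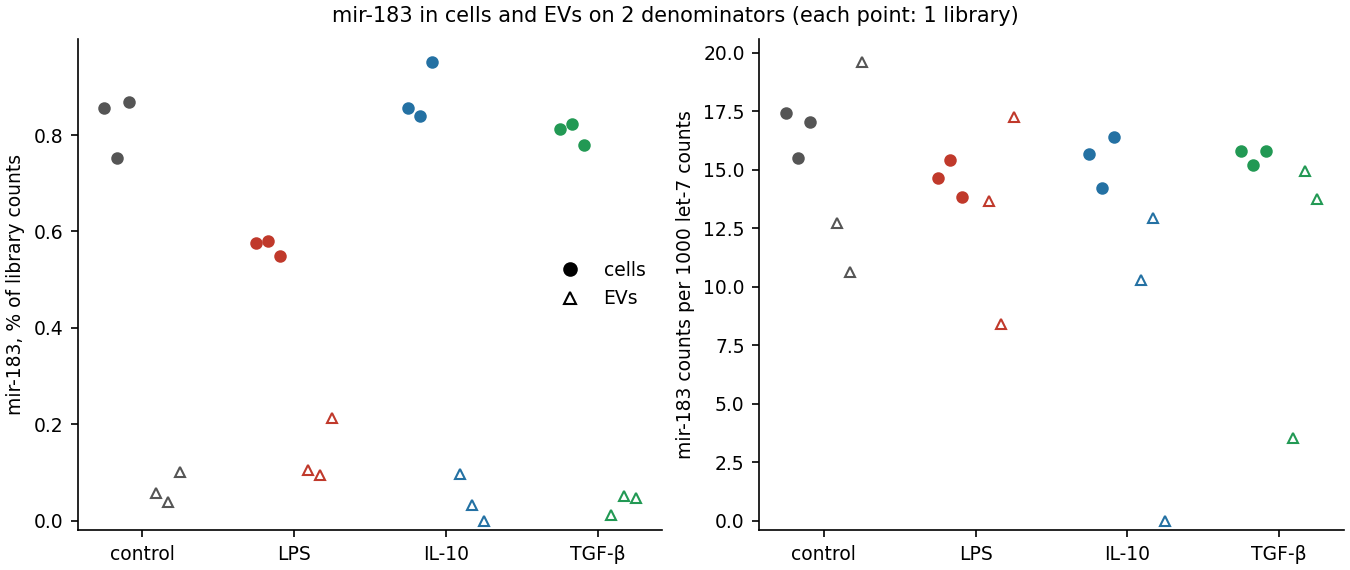
Mir-183 in each cell library (filled circles) and EV library (open triangles), as a percentage of library counts (left) and per 1000 let-7 counts of the same library (right). On the left all 12 EV points lie below all 12 cell points. On the right the EV points run from 0 to 19.6 and the cell points from 13.8 to 17.4, and 10 of the 12 EV points lie below all cell points of their treatment.

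At the ratio to let-7 found in cells, the EV libraries together would hold 227 counts of mir-183, 7.92 of mir-182 and 1.33 of mir-96. They held 179, 19 and 0. Of the 19 counts of mir-182, 11 were in control EV library 3, and 8 remained over the other 11 EV libraries. The absence of mir-96 from EVs was therefore not distinguishable from a level like that of cells on this scale.

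With TMM over all 24 libraries and 280 precursors, mir-183 was called lower in EVs than in cells in 3 of the 4 treatments. The log2 differences were -1.51 ± 0.41 in control (edgeR adjusted p = 0.00488, 38.6% of precursors called), -2.36 ± 0.45 with IL-10 (adjusted p = 0.000117, 43.2% called) and -2.01 ± 0.46 with TGF-β (adjusted p = 0.000832, 43.2% called). With LPS it was -0.90 ± 0.37 (edgeR adjusted p = 0.0657, 30.7% called). The median of all precursors was at -0.54, 0, -0.80 and -0.75 in control, LPS, IL-10 and TGF-β. With DESeq2 size factors the calls in control (-0.69, adjusted p = 0.205) and TGF-β (-0.96, adjusted p = 0.0989) were lost. The call in control was also lost without any 1 of the 3 control cell libraries (-1.14, -1.10 and -1.05). Leaving 1 of these out also cut the precursors passing the filter from 280 to 193 or 195, so the 2 changes cannot be told apart.

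Mir-182 entered the same fit through its counts in cells and failed the filter in EVs alone, so its fitted values there are a description and no call is read from them. They were 2.10 ± 0.66 for control EVs against control cells (edgeR adjusted p = 0.0126), -1.67 with LPS, -0.87 with IL-10 and -0.11 with TGF-β (edgeR adjusted p of 0.136, 0.532 and 0.947). Without control EV library 3 the value in control was -1.37 (adjusted p = 0.424), so its direction rested on that library. With library totals it was -0.05.

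Whether a treatment acted differently on a precursor in EVs and in cells was tested by an interaction term. For mir-183 the LPS effect in EVs minus that in cells was 0.61 ± 0.56 (edgeR adjusted p = 0.507), where 6.07% of precursors were called. For IL-10 the difference was -0.85 ± 0.62 (adjusted p = 0.629) and for TGF-β -0.50 ± 0.64 (adjusted p = 0.862). In these 2 comparisons edgeR called 0% of precursors, with 36 and 30 at an unadjusted p under 0.05, and DESeq2 called 4 and 15. For mir-182, again with no call read from it, the fitted LPS effect in EVs minus cells was -3.77 ± 1.04 (edgeR adjusted p = 0.0315), and -0.65 (adjusted p = 0.922) without control EV library 3. Those for IL-10 (-2.96 ± 1.16, edgeR adjusted p = 0.342) and TGF-β (-2.21 ± 1.20, edgeR adjusted p = 0.490) rest on the same EV counts.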

How the data were processed

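Small RNA was sequenced from BV2 cells and their EVs. Extraction was with miRNeasy columns, per the labels, with a final volume of 40 µL for cell RNA and 20 µL for EV RNA, and SMARTer libraries were amplified for 18 cycles. The authors deposited read counts per microRNA precursor, whole numbers without normalization. How reads were aligned and counted, and on which build, is not given in the sources used. DESeq2 appears, with no version, in the submitters' processing notes. Of the 8 deposited tables, 6 were used and 2 were not. All columns could be placed in a group, but not tied to a single sample.

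Counts were tested with edgeR 4.0.16 (limma 3.58.1, R 4.3.3), with TMM scaling, a minimum count of 10 (filterByExpr), and Benjamini-Hochberg adjustment over all precursors tested. Cells (259 precursors), EVs (71) and all 24 libraries (280) were fitted apart. Single values had exact permutation tests (SciPy 1.17.1). Alternatives were other scalings and filters, DESeq2 1.42.0, and leaving out each library. The precursors named are both members, mir-96, the 3 most alike each member over cell libraries, those sharing a seed, and up to 4 most counted of each list. The members and lists were chosen with earlier results of these data known.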

Additional observations from a re-analysis of the deposited data

Results flagged for a closer look

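The LPS effect on mir-182 differed between EVs and cells by -3.77 on the log2 scale (edgeR interaction term, adjusted p = 0.0315, with 6.07% of precursors called in that comparison). It was picked out because the adjusted p of the difference itself was under 0.05. Mir-182 failed the filter in EVs alone and entered this fit through its counts in cells, so no difference between EVs and cells is read from it. The value rests on 12 counts in control EVs and 3 in LPS EVs, and 11 of the 12 came from control EV library 3. Without that library the difference was -0.65 (adjusted p = 0.922).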

How the results depend on the processing

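Of 447 alternative values, 391 kept their direction and their side of the threshold. Most main values were not called, and one that stayed uncalled with the same sign is among the 391. That number is therefore no measure of how well the calls held. With library totals the value was 0.25 for mir-182 and -0.54 for mir-183 in LPS against control cells, -0.035 for mir-183 in TGF-β against control cells, -0.094 for mir-182 in LPS against IL-10 cells and -0.50 for mir-183 in LPS against TGF-β cells. For EVs against cells it was -0.047 (control), -2.90 (LPS), -2.89 (IL-10) and -2.59 (TGF-β) for mir-182 and -2.05 (LPS) for mir-183, and -2.86 for the LPS effect on mir-182 in EVs minus cells. The correlation of the 2 precursors was -0.014. With DESeq2 size factors EVs against cells was -0.69 (control) and -0.96 (TGF-β) for mir-183 and 0.12 (IL-10) and 0.93 (TGF-β) for mir-182. The DESeq2 test gave 0.15 and 0.93 for these last 2 and -0.55 for mir-183 with LPS. Without a filter mir-182 was at 0.46 in LPS against control and -0.0016 in LPS against IL-10 cells, and mir-183 at -1.35 in LPS EVs against cells. With a mean of at least 50 counts mir-183 in EVs against cells was at -0.63 (control) and -0.98 (TGF-β). With only the groups compared, mir-183 was at -0.10 in LPS against control EVs and -0.79 in LPS EVs against cells, and mir-182 at 2.42 (control) and 0.038 (TGF-β) in EVs against cells and -3.77 for the LPS effect. Without the 8 overlapping precursors, the EV share of mir-182 differed from cells by 0.060. The cause was not tested for any of these.

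Leaving out 1 library at a time, mir-182 in cells ranged from 0.47 to 0.78 for LPS against control, 0.41 to 0.67 for IL-10 against control (called without IL-10 library 1, at 0.63) and -0.074 to 0.24 for LPS against IL-10. Mir-183 in cells ranged from -0.51 to -0.37 for LPS against IL-10 and -0.35 to -0.19 for LPS against TGF-β (called without LPS library 2 or TGF-β library 3). The log2 ratio of the pair in LPS against control ranged from 0.56 to 0.95. In EVs mir-183 in LPS against control ranged from -0.21 to 0.30. EVs against cells ranged from -2.53 to -1.05 for mir-183 in control, and for mir-182 from -1.37 to 2.63 in control and -1.35 to 0.24 with TGF-β. Treatment effects in EVs minus cells ranged for mir-182 from -4.59 to -0.65 (LPS), -3.45 to 0.063 (IL-10) and -2.90 to 0.47 (TGF-β), and for mir-183 from -0.044 to 1.32 (LPS). The positive values for IL-10 and TGF-β came without control EV library 3. The LPS effect on mir-182 was also not called without LPS EV library 1 (-3.65) or 3 (-3.12). In the fit of cells with EVs, 280 precursors passed the filter with all libraries. Without 1 cell library 193 to 195 passed, and without 1 EV library 326 to 339.

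Called precursors, 83 for LPS in cells (54 higher, 29 lower), were 130 with library totals (30 higher, 100 lower). IL-10 had 14 higher and 6 lower (11 and 18 with library totals) and TGF-β 9 and 8 (5 and 19). Counts called in LPS against control EVs ran from 4 to 17 beside 13, those in EVs against cells from 19 to 225 beside 108 (control), from 41 to 152 beside 86 (LPS), from 26 to 219 beside 121 (IL-10) and from 30 to 215 beside 121 (TGF-β), and those for the LPS effect in EVs minus cells from 16 to 56 beside 17. Leaving out 1 library, IL-10 against control cells had from 5 (without control library 1) to 21 calls beside 20, with 13 without control library 3, 7 without IL-10 library 2 and 9 without IL-10 library 3. LPS against control EVs had from 1 (without control library 1 or LPS library 2) to 11 beside 13, with 2 without control library 2 or LPS library 3. TGF-β against control EVs had from 0 to 4 beside 3 (0 without any control library or TGF-β library 2 or 3). EVs against cells had from 68 to 136 (control), 55 to 84 (LPS), 79 to 148 (IL-10) and 92 to 135 (TGF-β), and the LPS effect from 13 to 33. Under the filter of at least 50 counts mir-182 could not be fitted with EVs nor mir-183 in EVs alone. A further 5 values could not be given, for lack of a passed filter or of an adjusted p. No paired analysis was possible because no label ties the numbers in the column names to a sample or culture. Depth limits EVs most, with mir-182 at 0 to 11 counts per library.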
